A study of Mus musculus with 4 samples.

Results

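The genes described are Nfkbia, Nfkbiz, Tnfaip3, Nfkb1, Nfkb2, Relb, Birc3 and Ier3, which encode NF-kB subunits and genes that NF-kB switches on, several of which hold the pathway back. They were chosen by symbol, and all 8 were found among the 33696 genes of the count tables, each under 1 Ensembl identifier. The cells came from the bone marrow of transplanted mice: after lethal irradiation, hosts received CD45.1+ Tet2+/+ and CD45.2+ Tet2+/- marrow in equal parts. Only the CD45.2+ Tet2+/- cells were sorted for sequencing, so every library carries the heterozygous loss of Tet2 and no genotype is compared. After 1 month of engraftment the mice were treated for 7 months with injections of PBS or of 0.29 µg vitamin B12 and with drinking water holding 100 mM NaCl or 100 mM sodium butyrate.

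The 4 groups are Control (PBS and NaCl), Butyrate (PBS and sodium butyrate), B12 (B12 and NaCl) and B12+Butyrate (both). Each group is 1 single-cell library from 3 mice pooled before sorting, so there is no replicate within a group, and no test between groups was possible. Live CD45.2+ cells were sorted from viably frozen marrow, and cKit+ and cKit- cells were mixed in equal parts, so the share of each cell type is not its share in marrow. The ages of the mice were not given in the sources used here. In each library the unique molecular identifiers (UMIs, the count of captured transcripts) of a gene were summed over the cells of a class and divided by the class total, as CPM, the gene's count scaled to a common class total in the usual way. Values in brackets after a CPM are exact Poisson 95% intervals, which cover counting error only and not differences between mice or libraries.

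NF-kB is a family of transcription factors that pair as dimers and wait in the cytoplasm, bound by inhibitor proteins. Signals from receptors for tumour necrosis factor, interleukin-1, microbial products and antigen lead to destruction of the inhibitor and let the dimer enter the nucleus, where it switches on inflammatory and survival genes, among them its own inhibitors. The canonical branch rests on the product of Nfkb1, and the noncanonical branch, important in B cells and dendritic cells, on the products of Nfkb2 and Relb. In marrow the pathway takes part in the function of myeloid cells, the survival of lymphocytes and the response of stem cells to inflammation.

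The feedback genes are themselves targets of NF-kB, so the 150 bases before the transcription start are shown for 3 of them whose levels are described most closely, as given by RefSeq on GRCm38.p6, with matches to the 10-base NF-kB consensus (the kappaB site), searched on both strands, in capitals. The windows lie at chr12:55492648-55492797 on the minus strand for Nfkbia, chr10:19015411-19015560 on the minus strand for Tnfaip3 and chr17:35821563-35821712 on the plus strand for Ier3, and are written 5′ to 3′ along the gene.
Nfkbia: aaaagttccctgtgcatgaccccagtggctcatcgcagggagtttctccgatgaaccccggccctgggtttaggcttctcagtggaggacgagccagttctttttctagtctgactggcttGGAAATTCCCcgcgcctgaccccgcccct
Tnfaip3: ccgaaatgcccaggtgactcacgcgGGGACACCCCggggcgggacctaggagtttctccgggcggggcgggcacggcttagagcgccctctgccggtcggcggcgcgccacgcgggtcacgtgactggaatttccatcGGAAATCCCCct
Ier3: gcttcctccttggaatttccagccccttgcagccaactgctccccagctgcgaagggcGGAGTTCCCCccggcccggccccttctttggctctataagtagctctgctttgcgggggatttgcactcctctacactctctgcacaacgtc

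The match of Nfkbia begins 29 bases before the start, and that of Ier3 begins 92 bases before it. Tnfaip3 has a match on both strands that begins 125 bases before the start and another that begins 12 bases before it. Of 32851 RefSeq windows of 300 bases around a start, 8.46% hold at least 1 match. Among the genes described here, 5 have an entry in the table, with 8 windows, of which 6 hold a match. The first window of Nfkb2 holds matches that begin 39, 38 and 11 bases before its start. Its later windows overlap and share a match at the same bases, so the windows with a match are not all separate sites. The window of Birc3 and another window of Tnfaip3 hold none. Nfkbiz, Nfkb1 and Relb have no entry. A match is a description of the letters and says nothing of binding in these cells.

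The libraries held 7932 to 9688 barcodes, of which 6793 to 8752 passed a filter on genes detected (500 or more), UMIs (1000 or more) and the mitochondrial share (no more than 10%). These cells gave 92643344 to 120843088 UMIs per library, with a median of 11583.5 to 12544.5 UMIs per cell. Library pairs shared 13 to 30 barcodes. Cells were gated on the UMIs of marker genes into 11 classes, named here by gate, and comparisons were counted over the 7 with at least 50 cells in every library: HSC/MPP (58 to 138 cells, stem and multipotent progenitor markers), GMP (195 to 399, primary granule genes of granulocyte-monocyte progenitors), neutrophil (2793 to 4613), monocyte (1073 to 1959), dendritic (154 to 276), B (508 to 1030) and T (139 to 374). The gates use these markers, so marker levels in a class are no independent support for its name. The share of neutrophils was 42.8% in Control, 41.1% in Butyrate, 57.3% in B12 and 55.9% in B12+Butyrate, so levels were compared within classes and not over all cells. Because UMIs were summed over the cells of a class, fewer expressing cells and less RNA per expressing cell were not told apart.

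The order of the classes was described for each gene from the range over the 4 libraries, with the mean setting the order. Levels were not compared between genes. Nfkb1 (ENSMUSG00000028163) encodes the precursor of the canonical DNA-binding subunit. It was highest in nonclassical monocytes (476 to 532 CPM), dendritic cells (406 to 507), NK cells (322 to 431), T cells (296 to 410.0), B cells (345 to 377) and plasmacytoid dendritic cells (294 to 373). Plasmacytoid dendritic cells lay above monocytes, and the other neighbours among these classes overlapped. Below them followed monocytes (238 to 279 CPM), HSC/MPP-gated cells (169 to 222), basophil/mast cells (137 to 151), GMP-gated cells (95.3 to 109.6) and neutrophils (97.6 to 102). Monocytes, HSC/MPP-gated cells and basophil/mast cells each lay wholly above the next class, whereas GMP-gated cells and neutrophils overlapped.

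Nfkb2 (ENSMUSG00000025225) encodes the precursor subunit of the noncanonical branch. It was highest in B cells (34.8 to 45.2 CPM), nonclassical monocytes (16.6 to 51.2), T cells (20.7 to 30.1), dendritic cells (18.3 to 21.6) and monocytes (15.5 to 22.5). It was lower in NK cells (5.90 to 21.0 CPM), HSC/MPP-gated cells (6.03 to 10.0), plasmacytoid dendritic cells (5.14 to 9.99), GMP-gated cells (4.51 to 7.83), basophil/mast cells (2.16 to 10.1) and neutrophils (4.79 to 6.55). Every neighbouring pair in this order overlapped. In GMP-gated cells and neutrophils Nfkb2 stayed under 10 CPM in all 4 libraries, the level below which a gene was not counted in a comparison. Relb (ENSMUSG00000002983), whose product partners that of Nfkb2, was highest in T cells (54.5 to 77.2 CPM), B cells (53.6 to 72.0) and nonclassical monocytes (36.5 to 61.4), and nonclassical monocytes lay above all later classes. It then ran through NK cells (16.7 to 35.4 CPM), dendritic cells (19.2 to 29.5), monocytes (18.2 to 22.4), HSC/MPP-gated cells (8.19 to 18.7), plasmacytoid dendritic cells (3.33 to 18.9), neutrophils (4.10 to 5.35), basophil/mast cells (0 to 8.06) and GMP-gated cells (2.59 to 5.50). The 2 noncanonical subunits shared high levels in B cells, T cells and nonclassical monocytes and low levels in GMP-gated cells and neutrophils.

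Nfkbia (ENSMUSG00000021025) encodes the inhibitor that retains NF-kB in the cytoplasm and is resynthesised after each pulse of activity. Its levels were highest in nonclassical monocytes (249 to 535 CPM), monocytes (245 to 332), T cells (248 to 329), NK cells (206 to 281) and B cells (181 to 232). They then ran through dendritic cells (179.9 to 209.6 CPM), basophil/mast cells (106 to 208), neutrophils (127 to 152), plasmacytoid dendritic cells (107 to 127), GMP-gated cells (108 to 119.9) and HSC/MPP-gated cells (87.2 to 102). Neutrophils lay just above plasmacytoid dendritic cells, and GMP-gated cells above HSC/MPP-gated cells, which had the lowest level. All other neighbours overlapped. Nfkbiz (ENSMUSG00000035356) encodes a nuclear inhibitor-like protein that also helps to switch on a second wave of genes. It was higher in nonclassical monocytes (593 to 992 CPM) than in any other class. The remaining classes followed with overlapping neighbours, from NK cells (179.8 to 287 CPM), monocytes (186 to 252), T cells (144 to 198), neutrophils (171 to 187) and plasmacytoid dendritic cells (132 to 200.3) to B cells (126 to 172 CPM), HSC/MPP-gated cells (66.6 to 131), dendritic cells (83.9 to 102), basophil/mast cells (45.4 to 97.5) and GMP-gated cells (27.6 to 45.6).

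Tnfaip3 (ENSMUSG00000019850) encodes a ubiquitin-editing enzyme that ends signalling from tumour necrosis factor and interleukin-1 receptors. It was highest in NK cells (112 to 369.7 CPM), T cells (176 to 281) and basophil/mast cells (48.6 to 186). It then ran through nonclassical monocytes (51.2 to 102 CPM), monocytes (54.7 to 98.9), B cells (65.6 to 89.0), plasmacytoid dendritic cells (40.0 to 62.2) and dendritic cells (37.5 to 53.3) to HSC/MPP-gated cells (21.6 to 31.5 CPM), GMP-gated cells (12.6 to 24.6) and neutrophils (13.8 to 25.1). B cells lay above plasmacytoid dendritic cells, and dendritic cells above HSC/MPP-gated cells. Birc3 (ENSMUSG00000032000) encodes a ubiquitin ligase that sits in receptor complexes, favours the canonical branch and helps to degrade the kinase that starts the noncanonical branch. Its levels were highest in B cells (239 to 283 CPM), nonclassical monocytes (123 to 263), NK cells (104 to 139), T cells (82.3 to 132) and monocytes (84.9 to 105). They were lower in dendritic cells (63.7 to 92.8 CPM), plasmacytoid dendritic cells (40.0 to 90.9), HSC/MPP-gated cells (30.6 to 41.9), basophil/mast cells (22.7 to 58.9), neutrophils (35.6 to 39.9) and GMP-gated cells (19.4 to 26.7). Neutrophils lay above GMP-gated cells, and the other neighbours overlapped.

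Ier3 (ENSMUSG00000003541), an immediate early gene linked to cell survival and to damping of NF-kB activity, had a different order. It was highest in basophil/mast cells (101 to 155 CPM) and neutrophils (72.2 to 92.4), with basophil/mast cells above all other classes and neutrophils above HSC/MPP-gated cells. It followed in HSC/MPP-gated cells (43.8 to 69.4 CPM), GMP-gated cells (45.4 to 72.9) and monocytes (33.2 to 76.6). The highest libraries of GMP-gated cells and of monocytes overlapped with neutrophils. Monocytes lay above nonclassical monocytes. The other classes were low: nonclassical monocytes (0 to 29.9 CPM), dendritic cells (10.2 to 21.7), T cells (6.58 to 12.9), plasmacytoid dendritic cells (4.72 to 13.3), NK cells (0 to 23.6) and B cells (3.78 to 4.80). The classes with much Ier3 were the progenitors, neutrophils, basophil/mast cells and monocytes, and those with little were the lymphoid and dendritic classes and nonclassical monocytes.

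**Figure D1:**
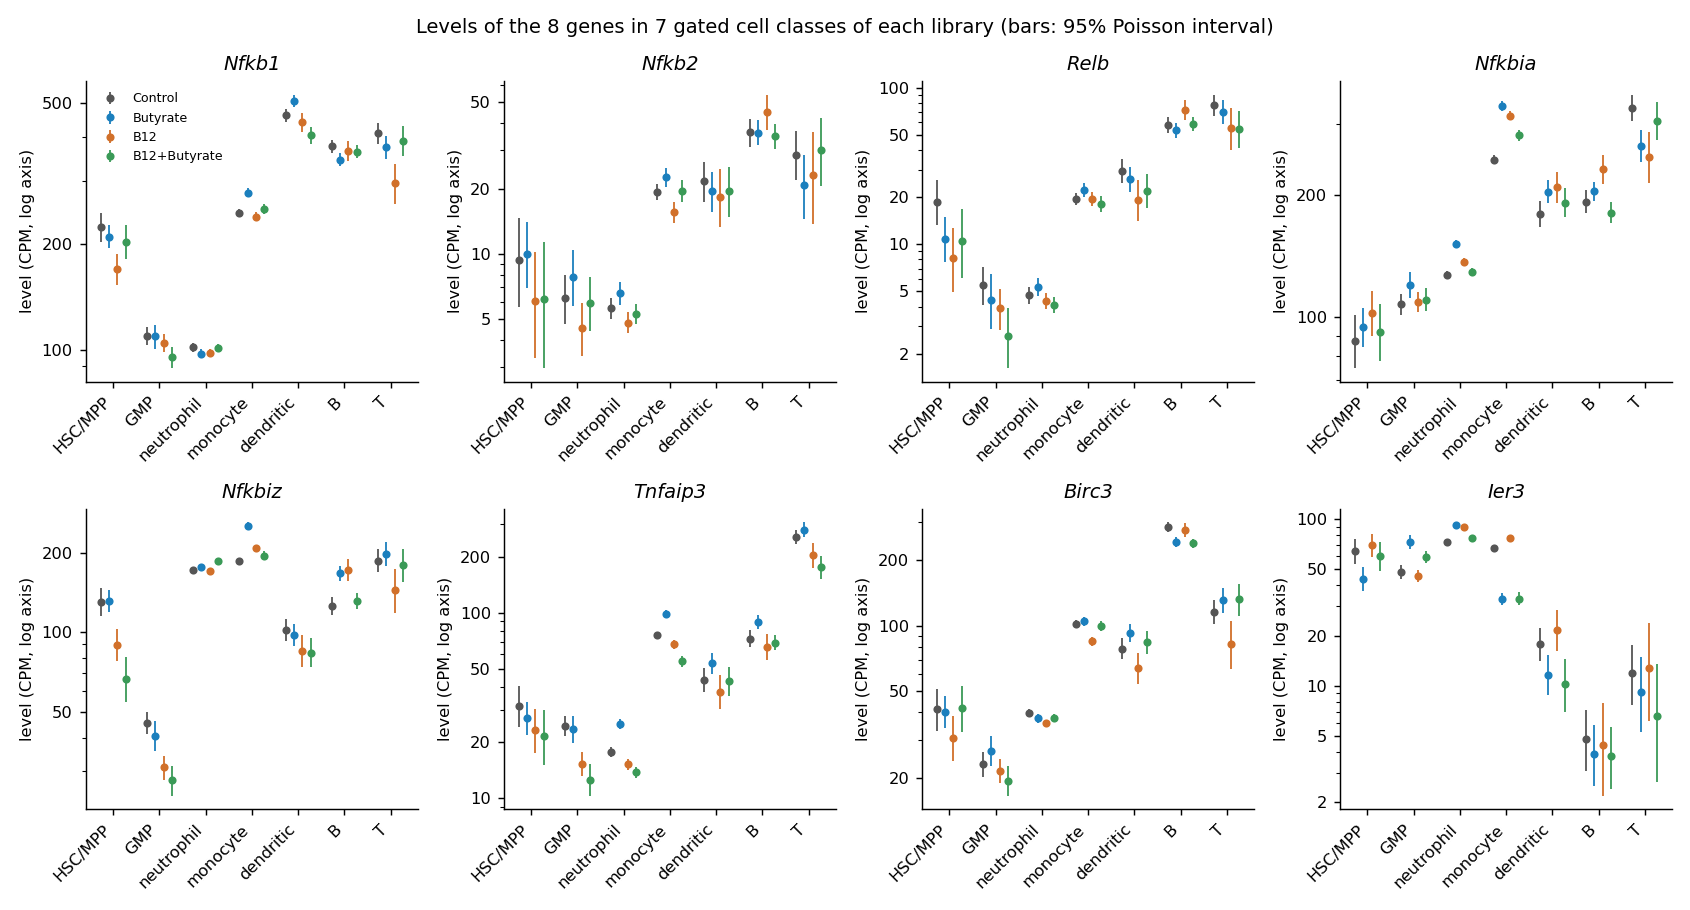
Levels of the 8 genes in CPM (log axes) in the 7 gated classes with at least 50 cells in every library, with 1 point per library and exact Poisson 95% intervals as bars. Of these classes T cells have the highest Tnfaip3 (176 to 281 CPM), B cells the highest Birc3 (239 to 283 CPM), and Ier3 is lowest in B cells (3.78 to 4.80 CPM).

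Over the 28 sums of 7 classes in 4 libraries, Pearson correlations of log2 levels (10 CPM added) described how alike these orders were. The sums share libraries and differ in depth, so no p is given. Ier3 was negatively correlated with each of the other 7 genes, from -0.18 with Nfkbiz to -0.88 with Nfkb2. The closest pair was Nfkb2 and Birc3 at 0.96, followed by Nfkb2 and Relb at 0.93. Among 6842 other genes with a mean of at least 20 CPM, the 3 most alike to Nfkb1 were Gng2 (0.97), H2-T23 (0.97) and Eif4g3 (0.96). For Nfkb2 they were Btla (0.97), Mfhas1 (0.96) and Bmt2 (0.95), and for Relb they were Wdr44 (0.98), Ssh1 (0.98) and Nek7 (0.98). For Nfkbia they were Atp2b1 (0.95), Klf3 (0.94) and Wipf1 (0.94), and for Nfkbiz they were Cd53 (0.91), Tut7 (0.89) and Tmem71 (0.89). For Tnfaip3 they were Zc3hav1 (0.96), Secisbp2l (0.95) and Irf1 (0.94), the last of which belongs to the list of known NF-kB targets used below. For Birc3 they were Mideas (0.97), Tmem243 (0.97) and Zc3h12a (0.96), and for Ier3 they were Ctdspl (0.96), Nfe2 (0.94) and Txn1 (0.93).

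Within the neutrophil lineage, several of the genes were higher at later stages in every library. Stages were set by granule and cell-cycle markers, from cycling through postmitotic immature and band to mature cells. Nfkbiz was 87.0, 89.0, 79.8 and 81.0 CPM in cycling neutrophils of Control, Butyrate, B12 and B12+Butyrate, and values below are in this order. It was 179, 238, 189.5 and 192 CPM in immature, 345, 422, 379 and 391 CPM in band and 603, 875, 747 and 816 CPM in mature neutrophils. The levels of Nfkbiz separated all 4 stages without overlap between libraries. The median depth was 18658.5 to 20621.5 UMIs per cell in cycling and 4780 to 5310 in mature neutrophils, and its part in the result was not tested.

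Ier3 was 59.2, 78.2, 73.4 and 60.7 CPM in cycling and 141, 176, 173 and 161 CPM in mature neutrophils. Birc3 was 28.3, 27.7, 25.2 and 27.8 CPM in cycling and 83.6, 103, 83.8 and 75.0 CPM in mature neutrophils. A difference was called where the ratio, with 10 CPM added to both levels, passed 1.5-fold, for genes at 10 CPM or more in at least 1 of the 2 sums. Nfkbiz, Birc3 and Ier3 passed in all 4 libraries, Tnfaip3 in 2 (Butyrate and B12+Butyrate) and Nfkbia in Butyrate only. In Control 3 of 6 measured genes passed, in Butyrate 5 of 7, in B12 3 of 6 and in B12+Butyrate 4 of 6, and none was lower. Of all genes, 20.7, 23.7, 22 and 22.4% were higher and 40.9, 39.8, 41.9 and 39.8% lower by that fold in the same libraries. Nfkb1 was higher in mature cells short of 1.5-fold, at 95.5, 91.9, 90.9 and 95.2 CPM in cycling and 133, 139, 137 and 142 CPM in mature neutrophils. Relb and Nfkb2 stayed near or under 10 CPM at every stage.

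**Figure D2:**
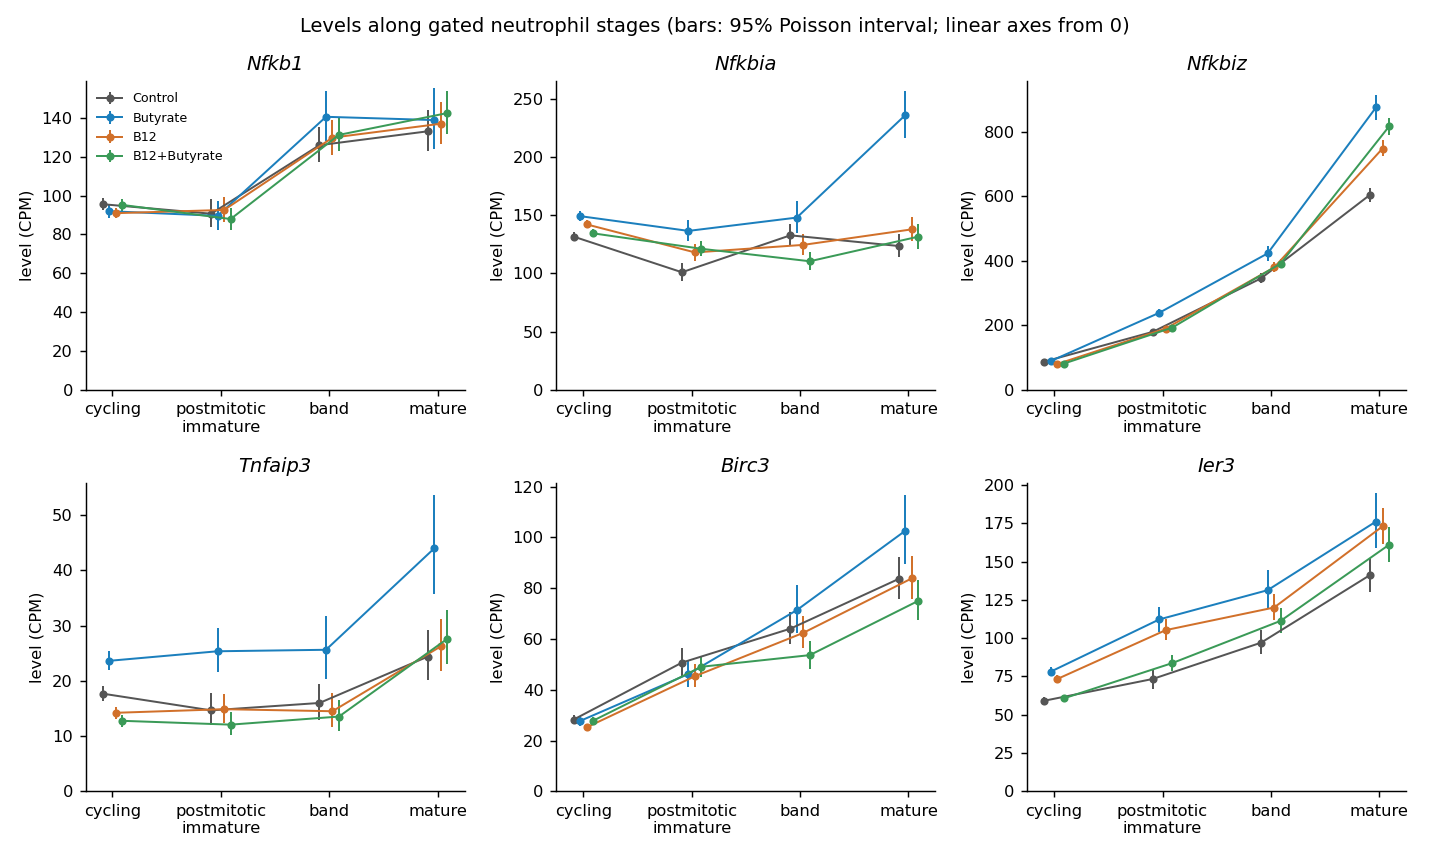
Levels of 6 of the genes in CPM (linear axes from 0) at the 4 neutrophil stages, with 1 line per library and exact Poisson 95% intervals as bars. Nfkbiz is higher at each later stage in every library, and Nfkbia and Tnfaip3 of mature neutrophils are highest in the Butyrate library.

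In monocytes all 8 genes were higher in non-cycling than in cycling cells in each of the 4 libraries. Nfkbiz was 126, 125, 106 and 97.8 CPM in cycling and 249, 357, 334 and 272 CPM in non-cycling monocytes. Nfkbia was 185, 217, 234 and 210.4 CPM in cycling and 307, 427, 415 and 337 CPM in non-cycling monocytes. Neither gene overlapped between the stages. The number past 1.5-fold was 4 of 8 in Control and 5 of 8 in each of Butyrate, B12 and B12+Butyrate, against 7.01, 7.94, 9.83 and 10.2% of all genes. None of the 8 was lower by that fold, against 11.1, 12.1, 13.7 and 14.1% of all genes. The median log2 ratio of the 8 genes was 0.58, 0.68, 0.72 and 0.65, against -0.02, -0.05, -0.03 and -0.03 over all genes. Nfkbia, Nfkbiz and Birc3 passed in every library. Cycling cells were those with at least 3 cell-cycle markers seen, with no scaling for depth. The median depth was 16351 to 20249 UMIs per cell in cycling and 10234 to 11380 in non-cycling monocytes. Immediate early and heat shock genes, which freezing and sorting can raise, summed to 10940, 13082, 13304 and 11564 CPM in non-cycling monocytes. In all monocytes they summed to 9516, 11478, 10677 and 10469 CPM. Their part in the result, and that of depth, was not tested.

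Between the treatments, few values of these genes were past 1.5-fold. B12 against Control gave none higher, where the background over all gene-by-class values was 1.12%, and 1 lower of the 50 gene-by-class values measured, where the background was 1.77%. That lower value, Relb in HSC/MPP-gated cells, reached 10 CPM only in Control, so its sign followed from that minimum. Butyrate against Control gave none higher (background 0.585%) and 1 lower of 51 (background 1.07%). B12+Butyrate against B12 gave 1 higher (background 1.51%) and 2 lower of 50 (background 1.48%). B12+Butyrate against Butyrate gave none higher (background 0.81%) and 3 lower of 50 (background 1.09%). The lower values were 2, 1.96, 4 and 6% of those measured, and all rest on 1 to 3 values. The first is near its background, and the second, at 1 value, cannot be told from its own. The median log2 ratios were -0.10, 0.03, -0.07 and -0.15 in the same order of comparisons, against medians within 0.02 of 0 over all genes. Both comparisons with Control share that library, as do both with B12+Butyrate. The 2 comparisons of B12 (without and with butyrate) share no library, nor do the 2 of butyrate (without and with B12).

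**Figure D3:**
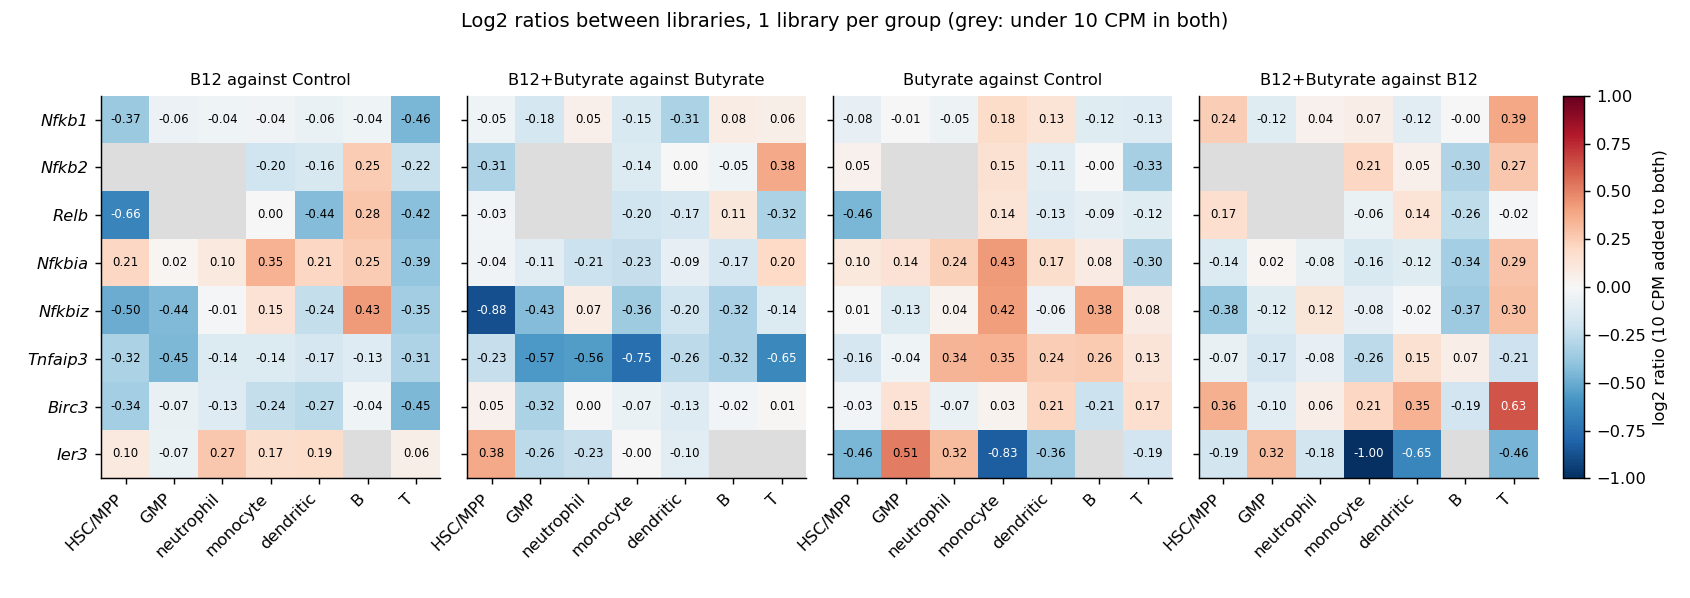
Log2 ratio of CPM (10 CPM added to both) for each gene and class in the 4 comparisons, with each ratio printed in its cell, blue below and red above 0, and grey where the gene was under 10 CPM in both libraries. Ier3 in monocytes is lower in both butyrate comparisons, and Tnfaip3 is below 0 in all 7 classes in both B12 comparisons.

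Ier3 in monocytes was lower in both libraries of mice given butyrate. It was 66.8 CPM in Control (63.7 to 70.0), 33.3 CPM in Butyrate (30.6 to 36.2), 76.6 CPM in B12 (72.7 to 80.5) and 33.2 CPM in B12+Butyrate (30.4 to 36.3). The intervals of both butyrate libraries lay below those of both others. The log2 ratio was -0.83 for Butyrate against Control and -1.0 for B12+Butyrate against B12, which share no library. In these comparisons 0.599 and 0.288% of all genes in monocytes were lower by 1.5-fold, and 20 of 8183 genes (0.244%) were lower by that fold in both. Apart from Ier3 these included the chemokine genes Cxcl2 and Ccl4 and the cytokine signalling inhibitor Socs3, named after their values were seen. The difference in Ier3 was present at both stages, at 51.3, 22.7, 62.0 and 26.9 CPM in cycling and 82.9, 42.1, 94.8 and 38.3 CPM in non-cycling monocytes.

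Other values moved with this difference in monocytes. The GMP markers, 5 genes of which none was at 0, summed to 1073, 754, 1247 and 912 CPM in monocytes, lower in the butyrate libraries. In non-cycling monocytes alone they summed to 321, 130, 194 and 91.4 CPM. The 8 cell-cycle markers, none at 0, summed to 1302, 1196, 1500 and 1098 CPM in monocytes, also lower in the butyrate libraries. The secondary granule markers of neutrophils, 7 genes with none at 0, summed to 418, 313, 344 and 326.5 CPM, with Control the highest. The 8 monocyte markers, none at 0, summed to 8434, 9119, 8373 and 9028 CPM, higher in the butyrate libraries, as were the 6 plasmacytoid dendritic markers, 1 of them at 0, at 164, 204, 142 and 190 CPM. Their part in the result was not tested. With cells thinned to 2000 UMIs the log2 ratio of Butyrate against Control was -0.47, short of the limit, and it passed under 9 of the 10 alternatives that can change its value. That of B12+Butyrate against B12 passed under all 10, from -1.18 to -0.96.

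The lower level of Ier3 was not shared by all myeloid classes. In neutrophils Ier3 was 72.2, 92.4, 89.2 and 77.4 CPM, in GMP-gated cells 48.1, 72.9, 45.4 and 59.1 CPM and in HSC/MPP-gated cells 64.1, 43.8, 69.4 and 59.8 CPM. In neutrophils the Control library was the lowest, and in GMP-gated cells both butyrate libraries were the highest. In HSC/MPP-gated cells both butyrate libraries were the lowest, short of 1.5-fold. The log2 ratios there were -0.46 for Butyrate against Control and -0.19 for B12+Butyrate against B12. In dendritic cells Ier3 was 17.8 CPM in Control (14.0 to 22.3), 11.7 CPM in Butyrate (8.75 to 15.3), 21.7 CPM in B12 (16.2 to 28.4) and 10.2 CPM in B12+Butyrate (6.93 to 14.5). Both butyrate libraries were lower there too, with a log2 ratio of -0.65 for B12+Butyrate against B12 (0.795% of all genes lower by 1.5-fold) and -0.36 for Butyrate against Control. The first fell short of the limit under a stricter gate, at -0.57. The 7 markers of conventional dendritic cells, none at 0, summed to 1353, 1130, 1004 and 1237 CPM, and the 5 mature neutrophil markers, of which 1 was at 0 in B12+Butyrate, summed to 24.5, 13.7, 27.9 and 14.1 CPM, lower in the butyrate libraries as Ier3 was. The 8 monocyte markers, none at 0, summed to 2243, 2169, 2214 and 2248 CPM in this class, more than its dendritic markers. Cells of the monocyte lineage that fell short of the monocyte gate may therefore be included. Their part in the result was not tested.

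**Figure D4:**
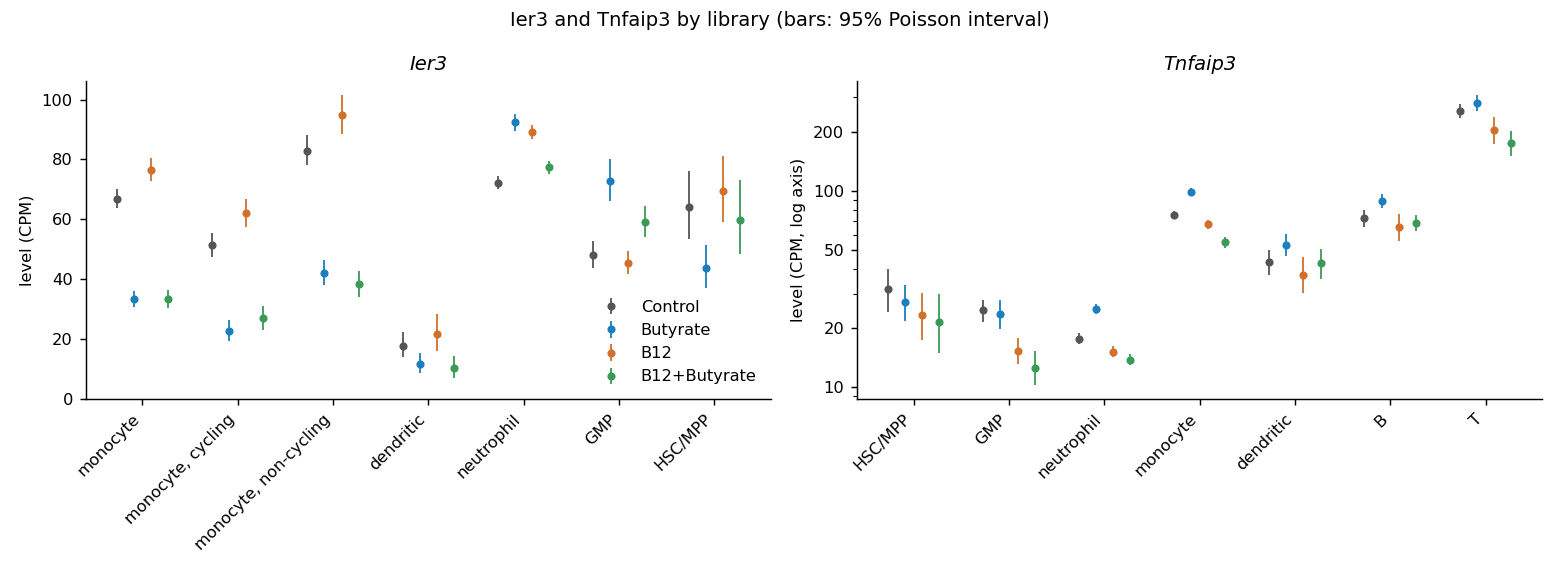
Levels in CPM of Ier3 (linear axis from 0) and Tnfaip3 (log axis) by class, with 1 point per library and exact Poisson 95% intervals as bars. Ier3 of the butyrate libraries lies at 33.3 and 33.2 CPM in monocytes, under the other libraries, and Tnfaip3 of each library with B12 lies under that of the library with the same drinking water and no B12 in each class.

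Tnfaip3 was lower with B12 in all 7 classes, both without and with butyrate, a pattern chosen after its values were seen. In monocytes it was 75.7 CPM in Control (72.4 to 79.0), 98.9 CPM in Butyrate (94.2 to 104), 67.7 CPM in B12 (64.1 to 71.5) and 54.7 CPM in B12+Butyrate (51.0 to 58.6). B12+Butyrate was the lowest and Butyrate the highest, with no overlap of their intervals with those of any other library. The log2 ratio was -0.14 for B12 against Control and -0.75 for B12+Butyrate against Butyrate, where 0.108% of all genes in monocytes were lower by 1.5-fold. In neutrophils Tnfaip3 was 17.7, 25.1, 15.2 and 13.8 CPM, in GMP-gated cells 24.6, 23.7, 15.3 and 12.6 CPM and in HSC/MPP-gated cells 31.5, 27.1, 23.3 and 21.6 CPM. In dendritic cells it was 43.5, 53.3, 37.5 and 42.8 CPM, in B cells 72.5, 89.0, 65.6 and 69.2 CPM and in T cells 256, 281, 204 and 176 CPM. In every class each B12 library was lower than the library with the same drinking water and no B12. In HSC/MPP-gated and dendritic cells the intervals of the compared libraries overlapped both without and with butyrate. In B cells and T cells they overlapped without butyrate.

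The median log2 ratio of Tnfaip3 over the 7 classes was -0.17 without butyrate and -0.56 with it, and the only values past 1.5-fold were those with butyrate in monocytes and T cells. With butyrate the ratios in GMP-gated cells and neutrophils, -0.57 and -0.56, lay just inside the limit. Of 5613 genes measured in all 7 classes, 16 (0.285%) were lower in all 7 in both comparisons and 18 (0.321%) were higher in all 7 in both. Tnfaip3 was the only one of the 5 members measured in all classes that was among them. The 14 ratios stayed below 0 under 9 of the 10 alternatives that can change a ratio, and 12 of 14 were below 0 with cells thinned to 2000 UMIs. Within monocytes the value with butyrate was past 1.5-fold at both stages, with levels of 59.4, 71.5, 55.9 and 41.8 CPM in cycling and 92.5, 121, 82.5 and 65.0 CPM in non-cycling cells, where 0.263 and 0.273% of all genes were lower. It was also past it in immature and band neutrophils, with log2 ratios of -0.68 and -0.60, where 0.297 and 0.354% of all genes were lower. Without butyrate the direction did not hold at every neutrophil stage. For B12 against Control the log2 ratios were -0.19 in cycling, 0.01 in immature, -0.09 in band and 0.08 in mature neutrophils. In monocytes the handling genes, immediate early and heat shock genes that freezing and sorting can raise, such as Fos and Hspa8, summed to 9516, 11478, 10677 and 10469 CPM over 18 genes with none at 0. Butyrate was the highest library for this sum as for Tnfaip3, while Control was the lowest. Its part in the result was not tested.

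In T cells Tnfaip3 was 256 CPM in Control (235 to 279), 281 CPM in Butyrate (257 to 307), 204 CPM in B12 (174 to 239) and 176 CPM in B12+Butyrate (151 to 203). The ratio of B12+Butyrate against Butyrate was -0.65, and 3.84% of all genes in T cells were lower by 1.5-fold in that comparison. Birc3 in T cells was 116 CPM in Control (102 to 131), 131 CPM in Butyrate (115 to 149), 82.3 CPM in B12 (63.4 to 105) and 132 CPM in B12+Butyrate (112 to 156). The B12 library was the low one, and the ratio of B12+Butyrate against B12 was 0.63, where 6.76% of all genes in T cells were higher by that fold. T cells were few (374, 300, 139 and 174 cells), and other markers moved between their libraries: GMP markers, 5 genes with none at 0, summed to 490, 358, 314 and 23.5 CPM, and HSC/MPP markers, of which 0 to 6 of 9 were at 0, to 98.7, 353, 36.0 and 12.2 CPM. The 7 NK cell markers, of which 1 was at 0 in Butyrate, summed to 286, 324, 433 and 374 CPM. The 7 T cell markers, none at 0, summed to 3547, 3585, 3327 and 3701 CPM. Their part in the result was not tested. Both values fell short of the limit under 1 alternative, Tnfaip3 at -0.51 with a stricter gate and Birc3 at 0.52 with each cell weighted alike.

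In HSC/MPP-gated cells 2 further values passed. Nfkbiz was 131 CPM in Control (115 to 147), 131 CPM in Butyrate (119 to 144), 89.7 CPM in B12 (77.9 to 103) and 66.6 CPM in B12+Butyrate (54.7 to 80.4). Both B12 libraries were lower, B12+Butyrate most, and the ratio was -0.88 for B12+Butyrate against Butyrate (1.85% of all genes lower) and -0.50 for B12 against Control. The first passed under all 8 alternatives that can change its value. Relb was 18.7 CPM in Control (13.3 to 25.7), 10.9 CPM in Butyrate (7.66 to 15.0), 8.19 CPM in B12 (4.93 to 12.8) and 10.5 CPM in B12+Butyrate (6.11 to 16.8). Control was the highest, and its interval overlapped those of Butyrate and B12+Butyrate but not that of B12. The ratio for B12 against Control was -0.66 (2.58% of all genes lower), and it was -0.56 with a looser cell filter and -0.35 with called doublets removed. In this comparison Relb reached 10 CPM only in Control, so the sign of its ratio followed from that minimum. These sums rest on 106, 138, 102 and 58 cells. The HSC/MPP markers, 9 genes with none at 0, summed to 4224, 3393, 2987 and 2797 CPM and the GMP markers, 5 genes with none at 0, to 2607, 2776, 3193 and 3982 CPM, lower and higher in the B12 libraries. Early B markers (1 to 3 of 5 at 0) summed to 239, 237, 153 and 118 CPM and conventional dendritic markers (1 to 2 of 7 at 0) to 293, 315, 213 and 197 CPM, both lower in the B12 libraries as Nfkbiz was. Basophil/mast markers (1 to 2 of 6 at 0) summed to 89.2, 96.5, 158 and 201 CPM, higher in the B12 libraries. Their part in the result was not tested.

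In mature neutrophils 2 of the genes, Nfkbia and Tnfaip3, were higher in Butyrate than in Control by over 1.5-fold. Nfkbia was 124 CPM in Control (114 to 134), 236 CPM in Butyrate (216 to 257), 138 CPM in B12 (128 to 149) and 132 CPM in B12+Butyrate (121 to 142). Tnfaip3 was 24.4 CPM in Control (20.2 to 29.3), 44.0 CPM in Butyrate (35.7 to 53.7), 26.3 CPM in B12 (21.9 to 31.3) and 27.6 CPM in B12+Butyrate (23.1 to 32.8). For both genes the Butyrate library lay above all others with no overlap of intervals. The log2 ratios were 0.88 and 0.65, in a comparison where 1.14% of all genes were higher and 1% lower by 1.5-fold. No other of the 8 genes passed the limit. Nfkbiz was 603, 875, 747 and 816 CPM and Nfkb1 133, 139, 137 and 142 CPM, with ratios of 0.53 and 0.06. The ratios of Birc3 and Ier3 were 0.27 and 0.30. Nfkb2 reached 10 CPM only in the Butyrate library, at 5.31, 11.8, 5.46 and 5.36 CPM, so the sign of its ratio followed from that minimum, and Relb was under 10 CPM in all 4 libraries.

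For B12+Butyrate against B12 in mature neutrophils, the ratios of the 6 genes at 10 CPM or more lay between -0.14 (Birc3) and 0.12 (Nfkbiz), and none passed 1.5-fold, where 0.27% of all genes were higher and 0.558% lower. The difference between this comparison and Butyrate against Control was not tested. In B12+Butyrate against Butyrate, Nfkbia alone was past 1.5-fold, at -0.80, where 0.813% of all genes were lower. The ratios of the other 5 genes at 10 CPM or more in both libraries lay between -0.52 (Tnfaip3) and 0.03 (Nfkb1). The handling genes of mature neutrophils, led in level by Fos and Dusp1, were above 0 for 16 of 17 measured in Butyrate against Control with a median of 0.31. Their sums were 9751, 12596, 12108 and 11620 CPM in Control, Butyrate, B12 and B12+Butyrate, over 18 genes of which 1 was at 0 in B12+Butyrate. GMP markers, 5 genes with none at 0, summed to 251, 69.0, 83.2 and 28.7 CPM, and cell-cycle markers, 8 genes with none at 0, to 69.0, 20.9, 37.8 and 25.9 CPM. Their part in the result was not tested.

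In monocytes Nfkbia, Nfkbiz and Tnfaip3 were likewise higher in Butyrate than in Control, short of 1.5-fold. Nfkbia was 245 CPM in Control (239 to 251), 332 CPM in Butyrate (323 to 341), 314 CPM in B12 (306 to 322) and 281 CPM in B12+Butyrate (273 to 289.5), with a ratio of 0.43. Control was the lowest, with an interval under those of the other libraries. Nfkbiz was 186 CPM in Control (181 to 192), 252 CPM in Butyrate (245 to 260.0), 207 CPM in B12 (201 to 214) and 195 CPM in B12+Butyrate (188 to 202), with a ratio of 0.42. Butyrate was the highest there. The handling genes of monocytes were above 0 for 17 of 18 in the same comparison, with a median of 0.27, and their part in the result was not tested. Over the 7 classes Nfkbia was above 0 in 6 both in B12 against Control and in Butyrate against Control, 2 comparisons that share Control, with T cells the exception in both. It was below 0 in 5 of 7 for B12+Butyrate against B12 and in 6 of 7 for B12+Butyrate against Butyrate. The count above 0 for B12 against Control became 5 of 7 with a stricter cell filter and with each cell weighted alike. That for Butyrate against Control became 5 of 7 with thinning.

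No value of Nfkb1 passed 1.5-fold. It was below 0 in all 7 classes for B12 against Control, from -0.46 in T cells to -0.04 in monocytes, and in 4 of 7 for B12+Butyrate against Butyrate. In neutrophils it was 102, 97.6, 98.2 and 101 CPM and in monocytes 244, 279, 238 and 250.2 CPM. In neutrophils Control was the highest by a small margin, and Butyrate was the highest in monocytes. Birc3 was likewise below 0 in all 7 classes for B12 against Control and in 4 of 7 for B12+Butyrate against Butyrate. For B12 against Control, Nfkb1 was below 0 in 6 of 7 with a stricter gate and in 4 of 7 with thinning, and Birc3 in 6 of 7 with each cell weighted alike and with thinning. In B cells, where it was highest, Birc3 was 283, 243, 275 and 239 CPM. Nfkb2 in B cells was 36.4, 36.3, 45.2 and 34.8 CPM and Relb 57.6, 53.6, 72.0 and 58.6 CPM, with B12 the highest for both.

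The other subunits and the signals that feed the pathway were described from a list of 51 further genes, all in the count tables. Rela, the main activating partner of the canonical branch, was 38.3, 42.8, 34.0 and 37.7 CPM in monocytes and 22.4, 24.9, 21.3 and 22.7 CPM in neutrophils. None of its values passed 1.5-fold, and it was below 0 in 6 of 7 classes in both B12 comparisons. Rel, a subunit important in lymphocytes, was 245, 270.3, 195 and 207 CPM in monocytes and 216, 218, 150.5 and 219 CPM in T cells. It was below 0 in 7 of 7 classes for B12 against Control and in 6 of 7 for B12+Butyrate against Butyrate. Tnf, which encodes tumour necrosis factor, was 70.3 CPM in Control (67.1 to 73.6), 115 CPM in Butyrate (109 to 119.8), 116 CPM in B12 (111 to 121) and 114 CPM in B12+Butyrate (109 to 119.6) in monocytes. Control was the lowest, and Tnf was above 0 in 6 of 7 classes for B12 against Control and in 7 of 7 for Butyrate against Control, which share Control. For B12+Butyrate against B12 Tnf was below 0 in 6 of 7, and for B12+Butyrate against Butyrate it was above 0 in 4 of 7. Il1b, which encodes interleukin-1 beta, was 297, 418, 493 and 319 CPM in mature neutrophils, highest in B12.

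Over the whole list, monocytes had 41 genes measured in Butyrate against Control. Of these 24 were above 0, 1 was higher by 1.5-fold (Tnf, log2 ratio 0.63) and 2 were lower, with Ccl4 the lowest at -1.27. Of all genes in that comparison 50.6% were above 0, 0.407% higher and 0.599% lower. For B12+Butyrate against B12, 23 of 40 were above 0, none was higher and 2 were lower by that fold, from Tnfrsf1b, a receptor for tumour necrosis factor, at 0.28 to Cxcl2 at -0.94, where 47.8% of all genes were above 0, 0.18% higher and 0.288% lower. In B12 against Control, 14 of 40 were above 0, 1 was higher and none lower, from Tnf at 0.65 to Ccl3 at -0.42, where 50.2% of all genes were above 0, 0.132% higher and 0.156% lower. With butyrate in both, B12+Butyrate against Butyrate had 16 of 41 above 0 and 1 lower, from Gadd45b at 0.31 to Cd83, a marker of activated antigen-presenting cells, at -0.81. There 49.1% of all genes were above 0, 0.0479% higher and 0.108% lower. The medians of the list lay between -0.04 and 0.04.

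In mature neutrophils most genes of the list were above 0 in Butyrate against Control and below 0 in B12+Butyrate against Butyrate. In Butyrate against Control 28 of 36 measured were above 0 with a median of 0.23, 5 were higher by 1.5-fold and none lower, from Ccl4 at 0.92 to Traf6 at -0.46. Of all genes 58.1% were above 0 with a median of 0.05, 1.14% were higher and 1% lower. Ccl4 reached 10 CPM only in Butyrate and Traf6 only in Control, so the signs of these 2 ratios followed from that minimum. For B12+Butyrate against Butyrate 10 of 35 were above 0 with a median of -0.14, none was higher and 3 were lower. Of all genes 45.1% were above 0 with a median of -0.02, 0.212% were higher and 0.813% lower, and 2 of the 35 reached 10 CPM only in Butyrate. There Cxcl2, which encodes a neutrophil-attracting chemokine, was lowest at -1.55, with 209.8 CPM in B12+Butyrate and 631 CPM in Butyrate. Both comparisons share the Butyrate library, which was the high one.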

How the data were processed

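Single-cell RNA was measured with the 10x Genomics 3' kit (v3.1) in 4 libraries. The authors deposited UMI counts per gene and cell, on GRCm39 per the submitters' processing notes, and the file headers name Cell Ranger 7.1.0. The sources used here do not say whether intronic reads were counted. Kept cells had 500 or more genes, 1000 or more UMIs and a mitochondrial share of 10% or less (6793 to 8752 per library, 92643344 to 120843088 UMIs), and were gated on marker genes. Per 10000 UMIs, gates needed 100 of neutrophil granule genes, 100 of primary granule genes or 45 of monocyte genes. For monocyte genes 25 sufficed where neutrophil genes reached 100 and primary granule genes did not. B, T, NK, basophil/mast and plasmacytoid gates needed at least 3 markers seen (with 10 of plasmacytoid genes). Among cells passing none of these, HSC/MPP (with 5 of its genes), nonclassical monocyte and dendritic gates needed at least 3 markers. Cells passing several gates (244 to 447) or none (195 to 414) were left out. Doublets, called from simulated pairs (369 to 613 cells), were kept except in 1 alternative. UMIs were summed per class and turned into CPM. Log2 ratios used 10 CPM added to both levels, genes at 10 CPM or more in either library, and a limit of 1.5-fold. Sums and ratios were checked on simulated counts. With 1 library per group no test was made and no p computed. The genes and lists were chosen with earlier results of these data known. Named genes are the 8 members, the highest and lowest of the pathway list in a class, Tnf, Il1b, Rela and Rel, the 3 most alike genes, and 2 handling genes by level, beside a few said to be named after their values were seen. Alternatives changed the cell filter, gates, weighting, scaling, pseudocount, doublets, depth and stage makeup. Python 3.11.15, numpy 2.4.6, pandas 2.3.3, scipy 1.17.1 and scikit-learn 1.9.0 were used. Promoter windows are RefSeq's on GRCm38.p6, a build other than that of the counts.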

Additional observations from a re-analysis of the deposited data

How the results depend on the processing

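No paired analysis was possible because each group is 1 library, and for the same reason no replicate could be left out. Under 12 alternatives, 183 to 201 of 201 gene-by-class ratios kept their side of the 1.5-fold limit. They all did with median-ratio size factors, with no minimum level and with the same makeup of stages. Under the 10 alternatives that can change a ratio, 156 to 201 ratios kept their sign, the fewest with cells thinned to 2000 UMIs. Counts past 1.5-fold that moved by more than 1.5 times, or from or to 0, were these. In B12 against Control the 1 lower value became 0 with a looser cell filter, with called doublets removed and with a 2-fold limit, and 3 with a pseudocount of 1 CPM and with cells thinned to 2000 UMIs. In Butyrate against Control the 0 higher became 1 with a stricter cell filter, a pseudocount of 1 CPM, a stricter gate and thinning, and the 1 lower became 2 with a pseudocount of 1 CPM, a stricter gate and thinning and 0 with a 2-fold limit. In B12+Butyrate against B12 the 1 higher became 0 with each cell weighted alike and with a 2-fold limit and 6 with thinning, and the 2 lower became 4 with thinning and 1 with a 2-fold limit. In B12+Butyrate against Butyrate the 0 higher became 1 with a stricter gate and 2 with thinning. The 3 lower became 5 with each cell weighted alike, a stricter gate and cells of several gates kept, 6 with a pseudocount of 1 CPM, 7 with thinning and 0 with a 2-fold limit. Of the 45 ratios that changed sign with thinning, 4 were then past the limit, all in HSC/MPP-gated cells: Ier3 in B12 against Control to -1.32 and in B12+Butyrate against B12 to 1.03, and in B12+Butyrate against Butyrate Nfkbia to 0.94 and Nfkb2 to 1.00. Thinning leaves few UMIs in the smaller classes, and the cause of the other changes was not tested.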

Other observations

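Classes with under 50 cells in a library were left out of the counts, and their values are given here with no comparison counted. In NK cells (37, 44, 31 and 44 cells) Tnfaip3 was 369.7 CPM in Control (299 to 451), 346 CPM in Butyrate (281 to 421), 145 CPM in B12 (94.4 to 212) and 112 CPM in B12+Butyrate (79.3 to 154). The intervals of both B12 libraries lay below those of both others. In basophil/mast cells (41, 27, 31 and 18 cells) Tnfaip3 was 186 CPM in Control (151 to 226), 137 CPM in Butyrate (106 to 174), 104 CPM in B12 (76.6 to 138) and 48.6 CPM in B12+Butyrate (27.2 to 80.2), lowest in B12+Butyrate. In nonclassical monocytes (40, 45, 41 and 23 cells) Nfkbiz was 614 CPM in Control (528 to 709), 992 CPM in Butyrate (881 to 1113), 593 CPM in B12 (504 to 693) and 724 CPM in B12+Butyrate (588 to 881), and Nfkbia was 249 CPM in Control (196 to 312), 535 CPM in Butyrate (455 to 626), 400.3 CPM in B12 (328 to 484) and 417 CPM in B12+Butyrate (316 to 539.9). Nfkbiz was highest in Butyrate, with an interval above those of Control and B12, and Nfkbia was lowest in Control, with an interval under those of the other libraries. Tnfaip3 in nonclassical monocytes was 79.6, 102, 98.2 and 51.2 CPM in Control, Butyrate, B12 and B12+Butyrate, so without butyrate it was higher with B12. In plasmacytoid dendritic cells (121, 115, 44 and 60 cells) Tnfaip3 was 56.5, 62.2, 40.0 and 60.2 CPM.

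Over all cells, which mix the classes and hold more neutrophils in the B12 libraries, Tnfaip3 was 45.6, 56.0, 30.2 and 27.3 CPM and Ier3 was 60.7, 61.1, 76.8 and 60.4 CPM in Control, Butyrate, B12 and B12+Butyrate.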
